A study of Mus musculus with 24 samples.

Results

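The interaction between 2 drugs was read from the 12 input libraries of a series of 24 libraries made from mouse tumours. All input columns of the gene table were members, 3 in each of 4 treatments, and the other 12 libraries (pull-downs with J2, an antibody that binds double-stranded RNA) were used here only for a side note. The 4 treatments were Combo (ORIN1001 and docetaxel together), docetaxel, ORIN1001 and vehicle. ORIN1001 inhibits the ribonuclease of IRE1α and was given by mouth at 150 mg/kg every day. Docetaxel, a taxane that stabilises microtubules, was injected into the peritoneum at 10 mg/kg every week, and mice on 1 drug also had the vehicle of the other. Every tumour was a transplanted fragment of 2153L, labelled as a triple-negative breast cancer with p53 knocked out, from an engineered mouse model, grown in the cleared fat pad of a female BALB/c host of 6 to 8 weeks. Treatment began at a volume of about 100 mm3. All groups therefore share the p53 loss, 1 tumour line and a host with its own immune cells, vessels and fibroblasts.

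The contrast was (Combo minus docetaxel) minus (ORIN1001 minus vehicle) on the log2 scale, called the interaction here. It is 0 where the fold changes of the single drugs multiply, above 0 where Combo stands higher than that, and below 0 where it stands lower. It asks whether ORIN1001 did the same to a gene in the presence of docetaxel as in its absence. IRE1α sits in the membrane of the endoplasmic reticulum and responds to unfolded proteins. Its ribonuclease splices the Xbp1 mRNA, which then codes for an active transcription factor, and it also degrades other transcripts. Taxanes hold dividing cells in mitosis. Interferon-γ from T cells and natural killer cells raises the chemokines Cxcl9 and Cxcl10, guanylate-binding proteins and both classes of antigen-presenting molecules in other cells of a tumour.

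Summed gene counts ran from 11850243 to 63267669 per library in 11 inputs and came to 3273101 in docetaxel replicate 3. Ribosomal RNA loci held 67.9% of the counts of that library and 0.605 to 3.16% elsewhere, so interactions are given with 11 inputs (without it, leaving 2 docetaxel tumours) and with all 12, written as a second value in brackets. Of 74 called genes that the naming rule took, 62 had an unadjusted p under 0.05 with 12 inputs as well. The other 12 did not: Aldoa, Atp5c1, Bad, Cox7a2, Cryab, Hist3h2ba, Nkg7, Nuf2, Nusap1, Rpl29, Ticam1 and Tpi1, whose values with 12 inputs were all nearer to 0. The Combo inputs also stood apart as a group. Transposable elements took 19.6, 29.5 and 21.4% of the counts of genes and transposable elements together in the Combo inputs. In the other inputs without docetaxel replicate 3 they took 10.7 to 15.4%. Ribosomal protein genes held 2.43, 1.41 and 1.98% of the gene counts in Combo and 2.74 to 3.24% in those others. The part of this composition in the results below was not tested. Mammary markers were present throughout, with the luminal list (keratins, Epcam and others) summing to 3179, 2269 and 2977 CPM (counts scaled to a common library size) in Combo and 2657 to 3550 CPM in the other 9 inputs. Trp53 itself still had 39.6, 23.2 and 30.1 CPM in Combo tumours, 38.8, 46.1 and 38.8 in docetaxel tumours, 42.9, 40.6 and 48.02 in ORIN1001 tumours and 58.1, 56.4 and 49.4 in vehicle tumours, and a count per gene does not show which part of it was deleted. In bulk tumours, fewer cells of a type and less RNA per cell cannot be told apart, for any gene named below.

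With 11 inputs, 932 genes lay above additivity and 595 below at an adjusted p under 0.05 (edgeR's quasi-likelihood test, Benjamini-Hochberg), which is 5.04% and 3.22% of the 18475 genes tested. The smallest adjusted p among them was 0.0369, so no call stood far past the threshold. With all 12 inputs no gene of 17768 passed in either direction (0% each way). The smallest adjusted p was 0.0942, and 3134 genes (11% above and 6.62% below additivity) had an unadjusted p under 0.05. DESeq2 called 573 genes above and 218 below on the same 12 libraries, and limma-voom with sample weights 2079 and 1906. Of the 1527 calls, 1505 were tested with 12 inputs, 1453 of them with the same sign and 1060 at an unadjusted p under 0.05. The calls also depended on single libraries. Without vehicle 1, ORIN1001 3, docetaxel 1 or Combo 3 no gene passed, without vehicle 3 only 2 did, without ORIN1001 2 there were 15 above and 4 below, and without docetaxel 2 there were 11 and 16. Without Combo 1 the counts were 1561 and 1633, and without Combo 2 they were 287 and 500. In those fits 4249 to 6431 genes had an unadjusted p under 0.05, against 5703 with 11 inputs, and 1516 of the 1527 genes had the same sign in all 11 fits.

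**Figure D1:**
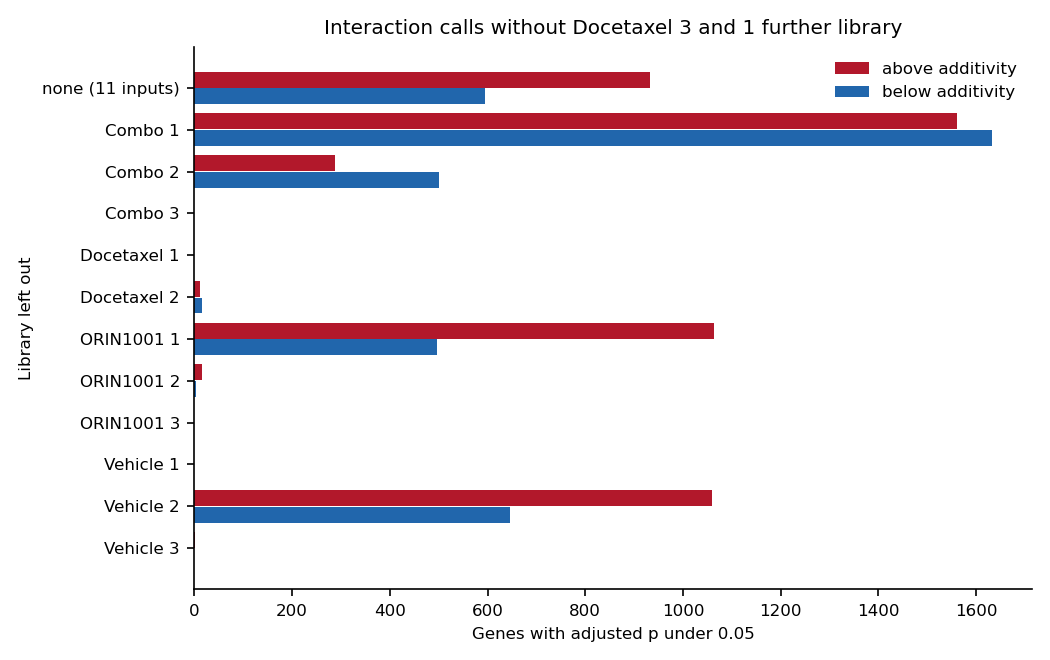
Genes with an adjusted p under 0.05 for the interaction (x axis) with 11 inputs and after leaving out 1 further library (rows), above additivity in red and below in blue. The counts of 932 and 595 fall to 0 without Combo 3, docetaxel 1, ORIN1001 3 or vehicle 1, and grow to 1561 and 1633 without Combo 1.

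For most called genes the mean ORIN1001 effect had one sign with docetaxel and the other sign without it, whatever the error of each. ORIN1001 minus vehicle had an adjusted p under 0.05 for 0 of all tested genes (edgeR). The sign without docetaxel is thus that of a mean, not of an established effect. Since the contrast chose the called genes, the shares that follow describe the calls and support nothing. Among the 932 genes above additivity, 760 (81.5%) were higher in Combo than in docetaxel tumours but lower in ORIN1001 than in vehicle tumours, as were 28.2% of all tested genes. Combo had the highest mean of the 4 groups for 912 of them, and for 786 (84.3%) the 3 Combo values exceeded the 8 other values, a pattern that 13.7% of all tested genes showed. Among the 595 genes below additivity, 548 (92.1%) were lower in Combo than in docetaxel and higher in ORIN1001 than in vehicle tumours, as were 25.7% of all tested genes, and Combo had the lowest mean for 551. In 468 (78.7%) all 3 Combo values lay under the 8 others, against 15.1% of all tested genes. The median interaction was 2.7 over the calls above additivity and -1.11 over those below it, against 0.02 over all tested genes.

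**Figure D2:**
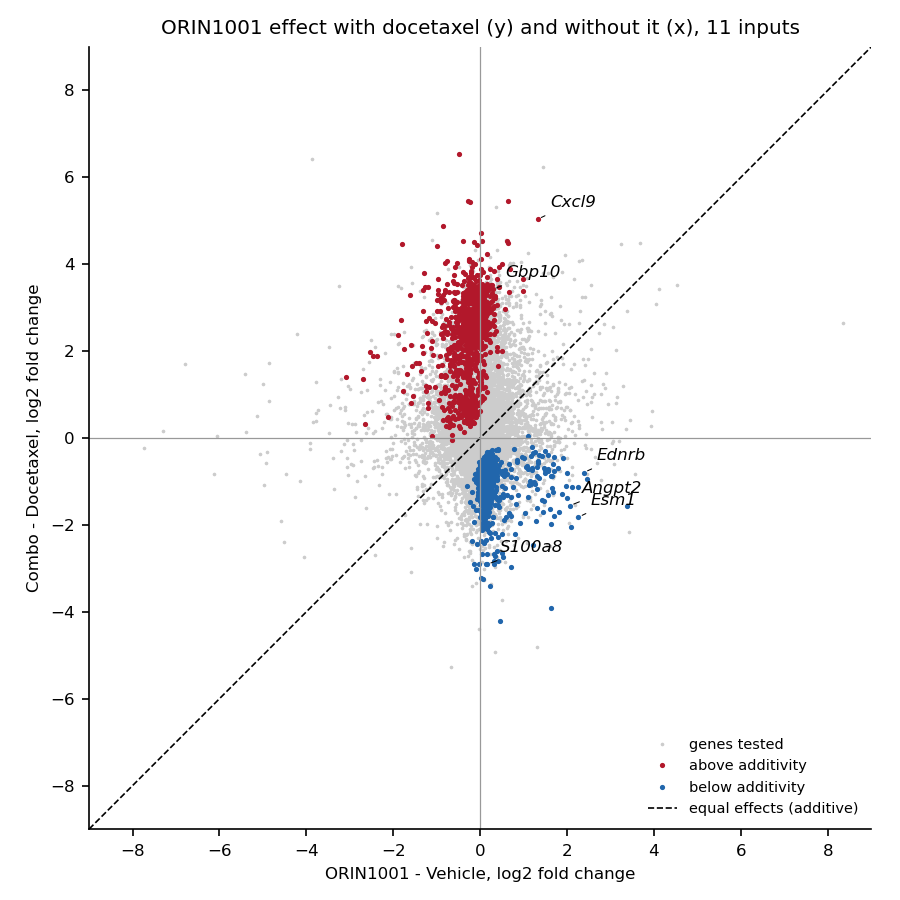
Log2 fold change of ORIN1001 with docetaxel (Combo minus docetaxel, y axis) against that without docetaxel (ORIN1001 minus vehicle, x axis) for 18475 genes with 11 inputs. Genes on the dashed line are additive. The 932 genes called above it (red) and the 595 below it (blue) spread mainly along the y axis, while Esm1, Angpt2 and Ednrb lie to the lower right, higher in ORIN1001 than in vehicle tumours by log2 changes that did not pass on their own (adjusted p = 0.301, 0.313 and 0.244).

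The largest named interaction above additivity was that of Cxcl9, a chemokine that draws activated T cells (chr5:92321331-92328079, GRCm38). It had 316, 179.6 and 213 CPM in Combo tumours, 3.96, 9.88 and 0 in docetaxel tumours, 59.4, 72.3 and 41.2 in ORIN1001 tumours and 43.4, 11.3 and 14.2 in vehicle tumours. Each Combo tumour stood above every other tumour, and docetaxel alone gave the lowest values. Its interaction was 3.71 ± 0.77 (SE) with 11 inputs and 3.90 ± 0.82 with 12 (adjusted p = 0.0942). It was the difference between a Combo minus docetaxel change of 5.04 ± 0.68 and an ORIN1001 minus vehicle change of 1.32 ± 0.49 (adjusted p = 0.493 for the second, edgeR). Measured against the additive level, the 3 Combo tumours were higher by 4.02, 3.20 and 3.45 log2 units. Cxcl10, which uses the same receptor (chr5:92346638-92348889), had 77.5, 59.9 and 67.1 CPM in Combo tumours, 18.7, 27.3 and 20.03 in docetaxel tumours, 17.1, 23.8 and 16.0 in ORIN1001 tumours and 36.9, 16.2 and 14.7 in vehicle tumours. Combo was again highest without overlap, while both single drugs overlapped with vehicle, and the interaction was 1.82 ± 0.49 (1.86 ± 0.47 with 12). Of the 8 T cell-attracting chemokine genes and receptors tested, these 2 were called and 6 had an unadjusted p under 0.05 above additivity, against 16.5% of all genes. Their median interaction was 1.64 with 11 inputs and 1.72 with 12.

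Cd8a, a chain of the co-receptor of cytotoxic T cells (chr6:71373427-71379171), had 4.27, 4.39 and 7.84 CPM in Combo tumours, 0.836, 1.18 and 0 in docetaxel tumours, 0.641, 1.67 and 0.487 in ORIN1001 tumours and 1.83, 1.13 and 2.03 in vehicle tumours. All Combo values exceeded the rest, and the interaction was 3.27 ± 0.71 with 11 inputs and 3.37 ± 0.77 with 12 (adjusted p = 0.0942). It was the only 1 of 14 T cell markers called (7.14%, near the 5.04% of all genes called above additivity). Still, 13 lay above 0 and 10 had an unadjusted p under 0.05 above additivity, against 16.5% of all genes. The median over the 14 was 2.61 (2.36 with 12 inputs, and 2.14 to 3.44 as each library was left out). Cd3e, a subunit of the T cell receptor complex, missed the threshold with 2.80 ± 0.78 (adjusted p = 0.0508, and 2.90 ± 0.83 with 12), and Cd4 did so with 2.85 ± 0.82 (adjusted p = 0.0547, and 2.73 ± 0.83 with 12). The summed T cell markers were at 44.4, 37.0 and 55.2 in Combo tumours, 19.2, 22.4 and 18.8 in docetaxel tumours, 15.3, 26.8 and 16.1 in ORIN1001 tumours and 23.2, 23.5 and 20.6 in vehicle tumours, in CPM. Also among the 12 largest were Gimap3, a GTPase of lymphocytes, at 2.86 ± 0.68 (2.92 ± 0.73 with 12), and Kcna3, a potassium channel of T cells, at 2.73 ± 0.62 (2.86 ± 0.71 with 12). Nkg7, a protein of cytotoxic granules, had 4.46, 3.07 and 5.95 CPM in Combo tumours, 0.613, 0.718 and 6.26 in docetaxel tumours, 0.741, 2.30 and 1.05 in ORIN1001 tumours and 1.10, 1.31 and 1.31 in vehicle tumours, and its interaction of 2.62 ± 0.64 was called with 11 inputs, while docetaxel 3 brought it to 1.91 ± 0.99 with 12. It was the only 1 of 10 cytotoxic and natural killer cell genes called (10%, against 5.04% of all genes), with 4 at an unadjusted p under 0.05.

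Immune checkpoint genes, receptors that restrain T cells among them, lay mostly on the same side. Of 11 immune checkpoint genes, Lag3, Havcr2 and Tigit were called above additivity (27.3%, against 5.04% of all genes), 7 had an unadjusted p under 0.05, and the median was 1.98 (1.83 with 12). Lag3, which binds MHC class II, had 10.1, 17.4 and 12.5 CPM in Combo tumours, 3.40, 4.81 and 1.25 in docetaxel tumours, 1.80, 2.02 and 1.38 in ORIN1001 tumours and 2.49, 3.41 and 2.12 in vehicle tumours. Within the docetaxel-treated pair every Combo value was higher than every docetaxel value, and without docetaxel every ORIN1001 value was lower than every vehicle value. The interaction was 2.31 ± 0.42 with 11 inputs and 2.46 ± 0.50 with 12. Havcr2 (Tim-3) had an interaction of 1.19 ± 0.30 (1.48 ± 0.64 with 12) and Tigit, at under 2.1 CPM in every tumour, one of 3.31 ± 0.91 (3.37 ± 0.91 with 12). Itgax, the integrin Cd11c of dendritic cells and some macrophages, had 73.4, 65.0 and 76.8 CPM in Combo tumours, 31.9, 46.0 and 15.0 in docetaxel tumours, 15.7, 21.8 and 10.8 in ORIN1001 tumours and 34.8, 30.9 and 26.3 in vehicle tumours, again with opposite and non-overlapping shifts in the 2 pairs and an interaction of 1.82 ± 0.35 (2.05 ± 0.45 with 12). It was the only 1 of 9 dendritic cell markers called (11.1%), with 5 at an unadjusted p under 0.05, against 16.5% of all genes above additivity. The 15 monocyte and macrophage markers went both ways, 8 above 0, with a median of 0.00 (0.26 with 12) that ranged from -0.24 to 0.25 as each library was left out. The 1 call was Arg1, an arginine-degrading enzyme, below additivity at -2.47 ± 0.68 (-2.21 ± 0.73 with 12). Its Combo values of 16.1, 10.1 and 10.1 CPM overlapped with the vehicle values of 20.7, 15.4 and 7.76.

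**Figure D3:**
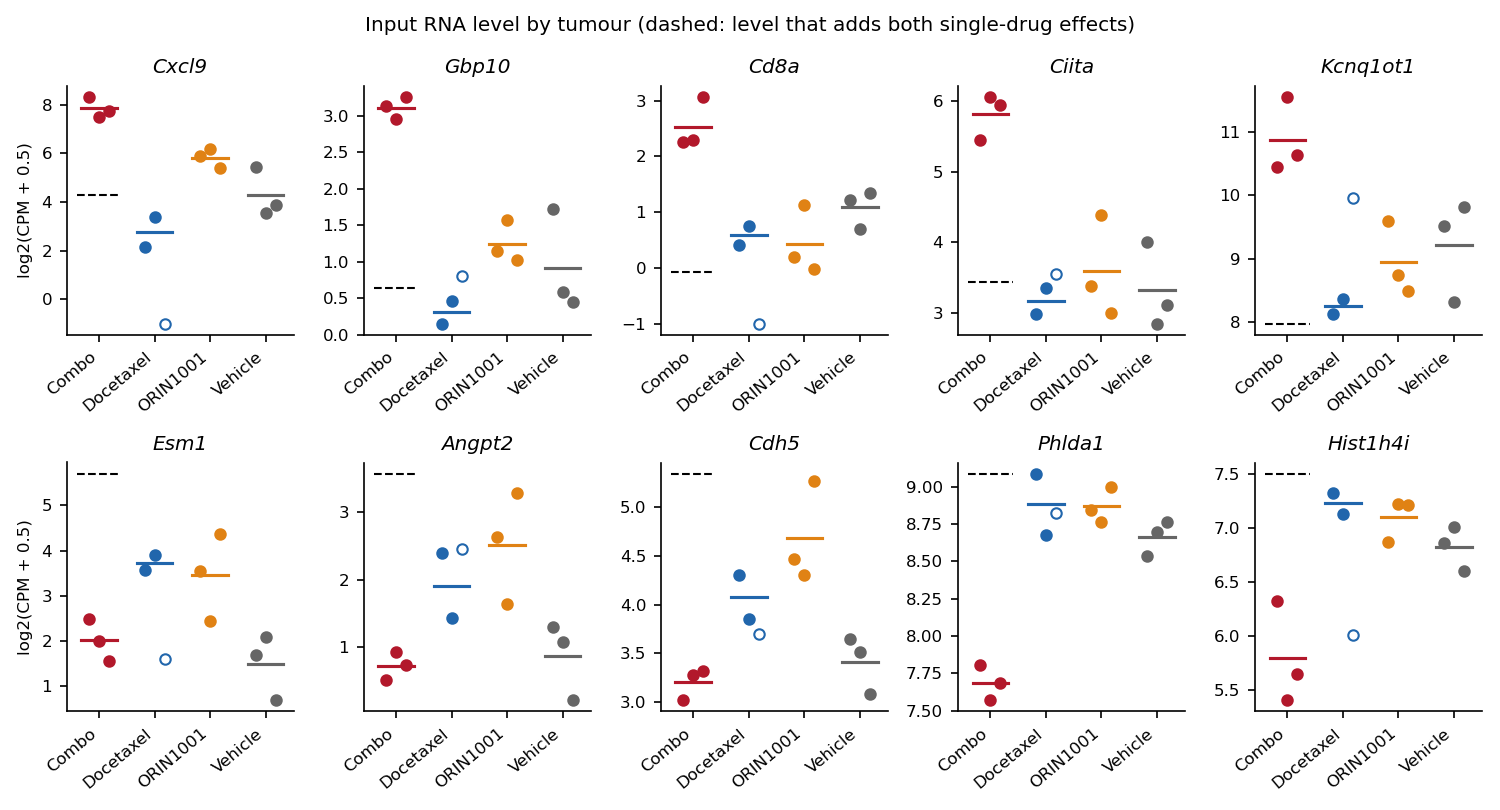
Level of 10 genes in each input (points, log2 of CPM + 0.5) by treatment, with group means as bars; the open point is docetaxel 3, left out of the mean, and the dashed line is the Combo level at which both single-drug effects add up. All Combo points lie above the dashed line for Cxcl9, Gbp10, Cd8a, Ciita and Kcnq1ot1, and below it for Esm1, Angpt2, Cdh5, Phlda1 and Hist1h4i.

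Among interferon-inducible genes, the GTPases that guard against pathogens inside cells had the higher medians. Gbp10, a guanylate-binding protein (chr5:105215699-105239533), had 8.30, 7.25 and 9.06 CPM in Combo tumours, 0.613, 0.872 and 1.25 in docetaxel tumours, 1.72, 2.48 and 1.54 in ORIN1001 tumours and 2.80, 0.998 and 0.865 in vehicle tumours. The Combo values were the highest without overlap, and the interaction was 3.12 ± 0.65 with 11 inputs and 3.08 ± 0.66 with 12 (adjusted p = 0.0942). All 16 GTPase genes tested lay above 0, with a median of 1.74 (1.81 with 12 inputs), and 10 had an unadjusted p under 0.05, but Gbp10 was the only call. Gbp8 at 2.79 ± 0.80 (adjusted p = 0.0543, and 2.18 ± 1.03 with 12), Gbp2b at 2.46 ± 0.71 (adjusted p = 0.0556, and 2.20 ± 0.72 with 12) and Gbp4 at 2.91 ± 0.87 (adjusted p = 0.0594, and 2.39 ± 0.97 with 12) missed it. The summed CPM of the family was 1279, 933 and 1062 in Combo tumours, 201, 300.4 and 318 in docetaxel tumours, 583, 711 and 462 in ORIN1001 tumours and 766, 231 and 271 in vehicle tumours. Docetaxel tumours were at the level of the lower vehicle tumours, ORIN1001 tumours lay between, and vehicle 1 stood apart from its group. Leaving out vehicle 1 lowered the median to 0.96, and that of the 40 other interferon-stimulated genes to -0.17, against 0.54 (0.36 with 12). Of those 40 genes 2 were called, Socs1 among them, which is 5%, against 5.04% of all tested genes. An unadjusted p under 0.05 above additivity was found for 6 of the 40, against 16.5% of all genes, and 29 lay above 0. The list was thus called about as often as all genes. Socs1, which restrains interferon signals, had 6.78, 6.63 and 8.79 CPM in Combo tumours, 1.45, 2.87 and 2.50 in docetaxel tumours, 2.83, 3.73 and 2.51 in ORIN1001 tumours and 6.42, 2.81 and 3.04 in vehicle tumours and an interaction of 2.18 ± 0.56 (2.17 ± 0.56 with 12).

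Promoters are shown for the called Cxcl10 and Socs1 and, as members of the GTPase list that were not called, for Gbp2b, Gbp5 and Gbp7, because known regulators of these genes bind short motifs. The interaction of Gbp5 was 1.74 ± 0.58 (1.78 ± 0.57 with 12), and that of Gbp7 1.43 ± 0.52 (1.25 ± 0.52 with 12). The windows run from 250 bases before to 50 after the start of the gene (RefSeq, GRCm38.p6). Capitals mark the interferon-stimulated response element core (ISRE), which is GAAA, any 2 bases and GAAA again, and the interferon-γ activated site (GAS), which is TTCNNNGAA, read on both strands.
Cxcl10, chr5:92348840-92349139, minus strand: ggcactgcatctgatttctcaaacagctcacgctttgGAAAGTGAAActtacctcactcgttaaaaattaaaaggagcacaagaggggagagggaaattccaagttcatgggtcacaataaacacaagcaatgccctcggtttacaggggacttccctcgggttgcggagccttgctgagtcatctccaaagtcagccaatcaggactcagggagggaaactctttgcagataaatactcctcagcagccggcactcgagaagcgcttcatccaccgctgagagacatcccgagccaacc
Socs1, chr16:10785487-10785786, minus strand: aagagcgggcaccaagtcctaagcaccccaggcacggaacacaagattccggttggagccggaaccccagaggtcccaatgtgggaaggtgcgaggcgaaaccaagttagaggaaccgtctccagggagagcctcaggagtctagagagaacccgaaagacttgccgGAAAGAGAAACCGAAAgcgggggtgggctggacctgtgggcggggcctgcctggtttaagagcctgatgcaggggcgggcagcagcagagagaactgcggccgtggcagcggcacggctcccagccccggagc
Gbp2b, chr3:142594597-142594896, plus strand: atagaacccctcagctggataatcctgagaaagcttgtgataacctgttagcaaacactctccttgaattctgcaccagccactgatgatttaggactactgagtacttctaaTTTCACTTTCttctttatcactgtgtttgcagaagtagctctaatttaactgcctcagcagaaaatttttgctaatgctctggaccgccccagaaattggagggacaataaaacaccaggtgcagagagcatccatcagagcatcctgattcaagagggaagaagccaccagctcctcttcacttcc
Gbp5, chr3:142496684-142496983, plus strand: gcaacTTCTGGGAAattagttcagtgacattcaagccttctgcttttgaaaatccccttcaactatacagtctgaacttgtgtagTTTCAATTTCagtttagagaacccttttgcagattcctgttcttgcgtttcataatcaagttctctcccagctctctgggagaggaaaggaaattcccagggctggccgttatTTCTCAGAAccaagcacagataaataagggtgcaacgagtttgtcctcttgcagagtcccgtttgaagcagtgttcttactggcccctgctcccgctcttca
Gbp7, chr3:142530086-142530385, plus strand: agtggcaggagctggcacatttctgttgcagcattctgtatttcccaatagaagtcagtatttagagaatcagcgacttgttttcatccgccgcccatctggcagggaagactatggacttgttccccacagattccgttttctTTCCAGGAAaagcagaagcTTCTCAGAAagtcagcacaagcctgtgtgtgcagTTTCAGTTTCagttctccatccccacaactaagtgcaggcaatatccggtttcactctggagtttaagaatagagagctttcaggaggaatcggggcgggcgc
In Socs1 a pair of ISRE matches overlap, starting 83 and 77 bases before the start of the gene. Gbp5 and Gbp7 each hold a pair of GAS matches and 1 ISRE, while Cxcl10 and Gbp2b hold 1 ISRE each. No match of either motif was found in the windows of Cxcl9 and Tapbp. Over the family of GTPases 90.9% of 11 windows held the ISRE and 54.5% the GAS motif, against 3.20% and 6.90% of the 14993 windows of all tested genes. Among genes called above additivity the shares were 5.62% and 7.81% of 320 windows, and among those called below 2.57% and 6.52% of 506. A match is a stretch of letters, not a site shown to be bound.

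Genes of antigen presentation lay above additivity too. Ciita, the master activator of MHC class II genes (chr16:10480014-10531064), had 43.1, 66.1 and 61.0 CPM in Combo tumours, 7.41, 9.72 and 11.3 in docetaxel tumours, 9.96, 20.4 and 7.51 in ORIN1001 tumours and 15.6, 6.70 and 8.11 in vehicle tumours. Its interaction was 2.40 ± 0.59 with 11 inputs and 2.33 ± 0.58 with 12 (adjusted p = 0.0957). All 10 class II genes lay above 0, with a median of 1.90 (2.24 with 12 inputs, and 1.39 to 2.74 as each library was left out). Of them 7 had an unadjusted p under 0.05, and Ciita was the 1 call. H2-Eb1, a class II β chain, had 167, 179.8 and 231 CPM in Combo tumours, 36.7, 95.6 and 36.3 in docetaxel tumours, 19.4, 52.3 and 17.6 in ORIN1001 tumours and 89.0, 46.0 and 43.6 in vehicle tumours. The docetaxel tumours differed among themselves by over 2-fold there, and the interaction of 2.54 ± 0.71 (2.73 ± 0.69 with 12) missed the threshold (adjusted p = 0.0508 with 11). In the class I pathway 2 of 17 genes were called, both with a role in loading peptides: the transporter subunit Tap2 at 1.49 ± 0.39 (1.24 ± 0.43 with 12) and tapasin (Tapbp) at 1.32 ± 0.35 (1.11 ± 0.38 with 12). Tap2 had 153, 157 and 161 CPM in Combo tumours, 39.5, 67.6 and 91.4 in docetaxel tumours, 73.2, 103 and 73.4 in ORIN1001 tumours and 113, 61.1 and 65.5 in vehicle tumours, so that Combo was highest without overlap. Of the 17, 7 had an unadjusted p under 0.05, against 16.5% of all genes above additivity. The median over the 17 was 0.98 (0.97 with 12), and 0.63 to 1.6 as each library was left out. Summed over the class I list, Combo did overlap with other groups. Its tumours had 4274, 3174 and 4428 CPM, against 3915 in ORIN1001 2 and 3898 in vehicle 1.

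Genes of blood vessels stood among the calls below additivity. Apart from Ednrb, those named here had low means in Combo and vehicle tumours and higher ones under either drug alone. Esm1, a proteoglycan of sprouting endothelial tip cells (chr13:113209659-113218104), had 5.07, 3.49 and 2.42 CPM in Combo tumours, 11.3, 14.5 and 2.50 in docetaxel tumours, 11.1, 4.92 and 20.2 in ORIN1001 tumours and 2.71, 3.73 and 1.10 in vehicle tumours. Combo overlapped with vehicle, and both lay below the ORIN1001 mean and below docetaxel 1 and 2. This was the largest named interaction below additivity, at -4.08 ± 0.79 with 11 inputs and -3.81 ± 0.86 with 12 (adjusted p = 0.0942). The ORIN1001 effect was -1.82 ± 0.58 with docetaxel and 2.26 ± 0.54 without (adjusted p = 0.301 for the second, edgeR). Angpt2, a ligand that loosens vessels for sprouting (chr8:18690263-18741562), had 0.916, 1.40 and 1.16 CPM in Combo tumours, 4.74, 2.20 and 5.01 in docetaxel tumours, 5.71, 2.62 and 9.28 in ORIN1001 tumours and 1.95, 1.60 and 0.656 in vehicle tumours. Every Combo value was below every docetaxel value and every ORIN1001 value above every vehicle value, also with docetaxel 3, and the interaction was -3.62 ± 0.78 (-3.73 ± 0.78 with 12 inputs). Further genes of endothelium stood among the 12 largest interactions below additivity: Gpihbp1, which anchors lipoprotein lipase in capillaries, at -3.13 ± 0.53 (-2.92 ± 0.71 with 12), and Adgrl4, an adhesion receptor, at -2.93 ± 0.61 (-2.70 ± 0.77 with 12). Depp1, a gene induced by FOXO factors, had -3.50 ± 0.57 (-3.37 ± 0.60 with 12). Ednrb, an endothelin receptor, had 4.52, 4.88 and 6.16 CPM in Combo tumours, 9.92, 8.23 and 0 in docetaxel tumours, 18.3, 24.9 and 82.4 in ORIN1001 tumours and 7.24, 8.20 and 8.77 in vehicle tumours. There ORIN1001 3 was far above its group, and the interaction of -3.18 ± 0.69 (-2.92 ± 0.83 with 12) ranged from -3.54 to -2.24 as libraries were left out. Docetaxel minus vehicle passed for none of Esm1, Angpt2 and Ednrb. It was 2.37 ± 0.57, 1.28 ± 0.56 and 0.18 ± 0.51 with 11 inputs (adjusted p = 0.177, 0.3425 and 0.908, edgeR).

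In the endothelial marker list 3 of 11 genes were called below additivity (27.3%, against 3.22% of all genes), 8 had an unadjusted p under 0.05 on that side, against 14.4% of all genes, and the median was -1.48 (-1.52 with 12 inputs). These were the cadherin Cdh5, the transcription factor Erg and the sialomucin Emcn. Cdh5, which joins endothelial cells to each other, had 7.63, 9.21 and 9.48 CPM in Combo tumours, 19.2, 13.9 and 12.5 in docetaxel tumours, 21.6, 19.3 and 38.02 in ORIN1001 tumours and 12.1, 10.9 and 7.99 in vehicle tumours. The Combo values were below all docetaxel values and the ORIN1001 values above all vehicle values, and the interaction was -2.26 ± 0.40 with 11 inputs and -2.18 ± 0.41 with 12. Pericytes wrap capillaries. Of 10 pericyte and smooth muscle genes 4 were called below additivity: the potassium channel subunits Kcnj8 at -2.46 ± 0.55 (-2.27 ± 0.70 with 12) and Abcc9 at -2.52 ± 0.40 (-2.19 ± 0.68 with 12), the signalling regulator Rgs5 at -2.27 ± 0.40 (-2.14 ± 0.42 with 12) and desmin (Des) at -3.38 ± 0.57 (-3.61 ± 0.66 with 12). Abcc9 had 9.16, 12.6 and 10.3 CPM in Combo tumours, 24.1, 15.4 and 1.25 in docetaxel tumours, 29.7, 19.99 and 36.4 in ORIN1001 tumours and 11.8, 8.96 and 7.04 in vehicle tumours. Only the ORIN1001 and the first 2 docetaxel tumours were high. Of the other members 2 had an unadjusted p under 0.05 above additivity, and the median over all 10 was -1.19 (-1.11 with 12). The pericyte list summed to 222, 243 and 242 CPM in Combo tumours, within the range of vehicle tumours (273, 366 and 191). Docetaxel tumours had 266, 247 and 217, and ORIN1001 tumours 229, 210 and 301. Endothelial markers summed to 62.8, 95.8 and 74.8 CPM in Combo, overlapping with vehicle (92.1, 64.7 and 47.7). Their sums were 106, 87.3 and 105 in docetaxel and 108, 93.0 and 168 in ORIN1001 tumours. Fibroblast genes split, with Col6a1, a collagen chain, at -1.88 ± 0.41 (-2.60 ± 0.66 with 12) and Fbln2, a matrix glycoprotein, at 1.28 ± 0.34 (1.29 ± 0.32 with 12). The fibroblast median of -0.62 moved to -1.53 with docetaxel 3 and turned to 0.12 without docetaxel 1. Docetaxel 3 had a summed fibroblast level of 3041 CPM, against 472 to 1530 CPM in the other 11 inputs.

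**Figure D4:**
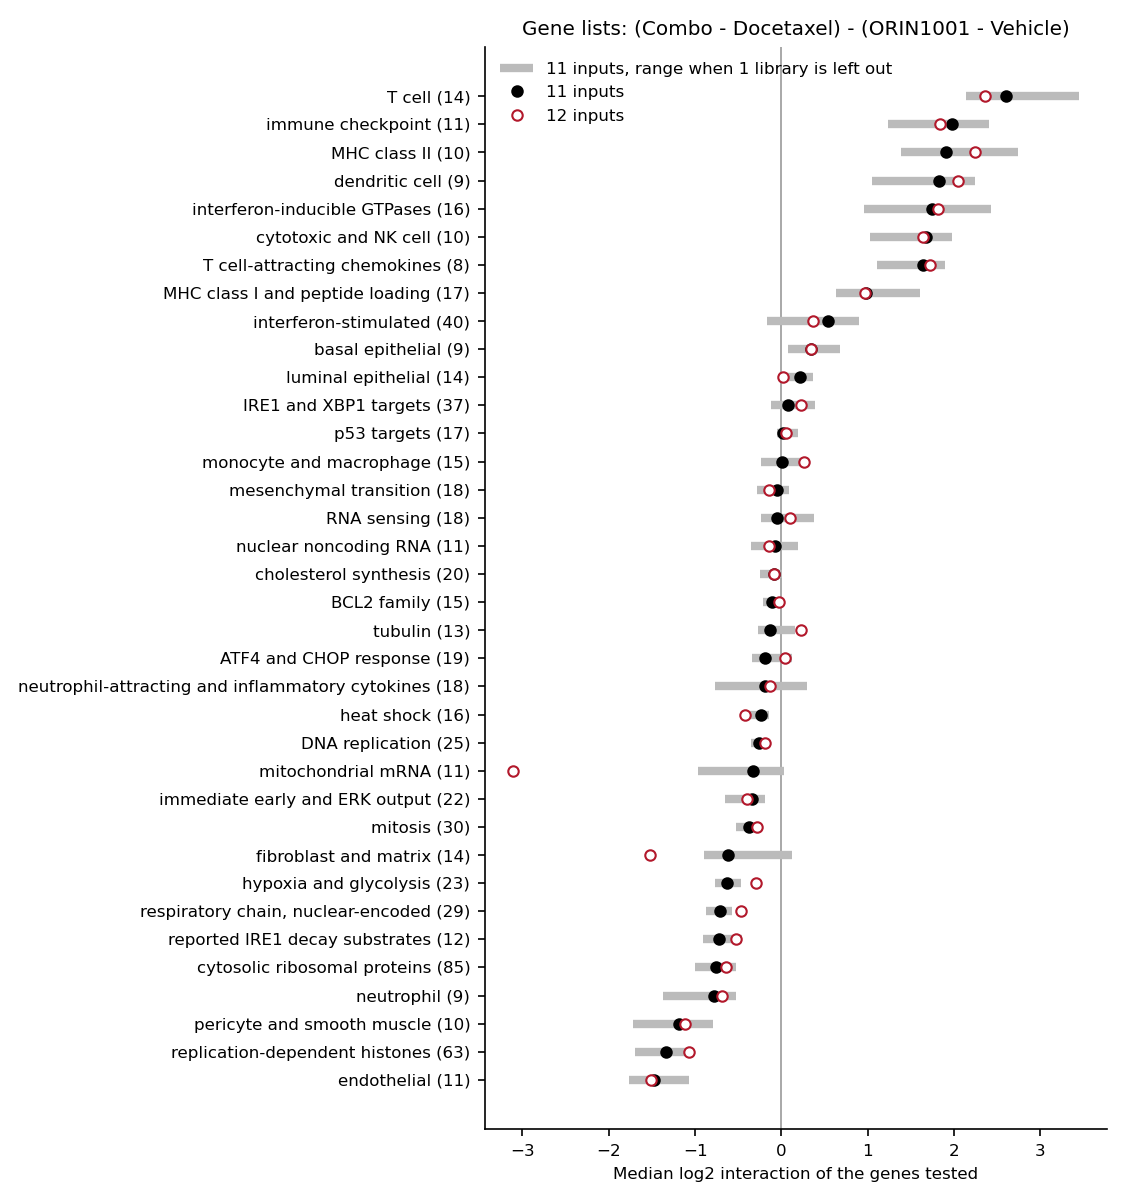
Median log2 interaction of the tested genes in each list of 8 or more (x axis), with 11 inputs (black), with 12 inputs (open red) and the range as each further library is left out (grey). T cell, checkpoint, MHC and GTPase lists lie above 0 and endothelial, pericyte, histone and ribosomal protein lists below 0 in both fits; mitochondrial mRNA and fibroblast medians move furthest with docetaxel 3.

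A pair of neutrophil genes stood far below additivity. S100a8 and S100a9, which together form calprotectin and lie side by side on chromosome 3, had interactions of -3.07 ± 0.71 (-2.78 ± 0.96 with 12) and -2.98 ± 0.73 (-2.71 ± 0.89 with 12). S100a8 had 2.69, 0.209 and 1.74 CPM in Combo tumours, 13.0, 10.9 and 0 in docetaxel tumours, 20.8, 22.2 and 17.4 in ORIN1001 tumours and 13.0, 14.8 and 26.5 in vehicle tumours. Combo was far below every other tumour but docetaxel 3, which had no read of it. The docetaxel and ORIN1001 tumours overlapped with or lay just under vehicle. These 2 were the only calls among 9 neutrophil markers (22.2%, against 3.22% of all genes called below), whose median was -0.78 (-0.68 with 12). The summed level of the list did not follow them, with 138, 77.6 and 146 in Combo tumours, 84.5, 115 and 35.1 in docetaxel tumours, 105, 133 and 71.1 in ORIN1001 tumours and 83.8, 81.2 and 129 in vehicle tumours, in CPM. Cxcl1, a chemokine that draws neutrophils, had 9.04, 4.12 and 8.00 CPM in Combo tumours, 24.3, 50.7 and 21.3 in docetaxel tumours, 26.2, 35.6 and 28.6 in ORIN1001 tumours and 23.6, 22.6 and 39.1 in vehicle tumours and an interaction of -2.50 ± 0.50 (-2.32 ± 0.53 with 12). Over the 18 neutrophil-attracting and inflammatory cytokines calls went both ways: Cxcl1 was called below, the macrophage growth factor Csf1 above at 0.89 ± 0.18 (0.70 ± 0.25 with 12), and the median was -0.19 (-0.13 with 12), which turned to 0.30 without docetaxel 2.

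Histones, ribosomal proteins and genes of the respiratory chain lay mostly below additivity. Of all tested genes 3.22% were called below, and 14.4% had an unadjusted p under 0.05 on that side. Of 63 replication-dependent histone genes, which are made for DNA synthesis, all 63 lay below 0 with 11 inputs, 25 were called (39.7%) and 56 had an unadjusted p under 0.05. Their median was -1.33 with 11 inputs and -1.07 with 12. Hist1h4i had 79.4, 41.9 and 49.5 CPM in Combo tumours, 159, 139 and 63.9 in docetaxel tumours, 116, 148 and 147 in ORIN1001 tumours and 115, 128 and 96.3 in vehicle tumours and an interaction of -1.66 ± 0.33 (-1.39 ± 0.44 with 12). Combo values were the lowest of the 11 inputs, with Combo 2 at the bottom. Histone genes are near-identical copies, so the counts of 1 member are uncertain. The 30 mitosis genes had 4 calls below (13.3%), Hmmr, Nuf2, Nusap1 and Ccnb2, and a median of -0.37 (-0.28 with 12). Ccnb2, a cyclin of mitotic entry, had 56.4, 47.6 and 56.3 CPM in Combo tumours, 92.7, 92.7 and 47.6 in docetaxel tumours, 80.4, 94.2 and 95.7 in ORIN1001 tumours and 72.7, 81.1 and 74.3 in vehicle tumours and an interaction of -1.04 ± 0.17 (-0.83 ± 0.30 with 12). None of 25 DNA replication genes was called by edgeR's test (6 below at an unadjusted p under 0.05). Ribosomal protein genes had 8 calls of 85 (9.41%), 44 below additivity at an unadjusted p under 0.05 and a median of -0.76 (-0.64 with 12). In 62 of the 85 all Combo values lay under the 8 others. Rpl14 had 167, 61.4 and 101 CPM in Combo tumours, 324, 341 and 148 in docetaxel tumours, 301, 342 and 362 in ORIN1001 tumours and 315, 306 and 284 in vehicle tumours, with Combo 2 lowest, and an interaction of -1.74 ± 0.41 (-1.47 ± 0.49 with 12). Many of these genes have processed copies in the genome, so their counts are uncertain as well. Respiratory chain genes of the nucleus had 2 calls of 29 (6.9%, Atp5c1 and Cox7a2), 20 at an unadjusted p under 0.05 and a median of -0.71 (-0.47 with 12). The glycolysis and hypoxia list had 2 of 23 entries called (8.7%: Aldoa, which the table holds under 2 identifiers, and Tpi1) and a median of -0.63 (-0.30 with 12). For histones, ribosomal proteins and respiratory chain genes the median departure from additivity was largest in Combo 2, which also had the lowest share of ribosomal protein counts. For ribosomal proteins it was -0.36, -1.33 and -0.71 in Combo 1, 2 and 3.

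Some genes of growth signalling were among the calls. Phlda1, an early response gene of growth factor signalling (chr10:111506286-111508649), had 223, 189.7 and 206 CPM in Combo tumours, 544, 409 and 452 in docetaxel tumours, 459, 434 and 512 in ORIN1001 tumours and 371, 415 and 433 in vehicle tumours. Its interaction was -1.41 ± 0.20 with 11 inputs and -1.39 ± 0.23 with 12 (adjusted p = 0.0942), and it ranged from -1.61 to -1.21 as libraries were left out. Spry2 and Dusp4, feedback inhibitors of the ERK pathway, were called below as well, at -0.83 ± 0.18 (-0.78 ± 0.21 with 12) and -0.80 ± 0.18 (-0.99 ± 0.26 with 12). These were the 3 calls (13.6%, against 3.22% of all genes) among 22 immediate early and ERK output genes, whose median was -0.34 (-0.40 with 12). Tgfbr1, the type I receptor of TGF-β, had 121, 161 and 145 CPM in Combo tumours, 68.5, 81.5 and 25.0 in docetaxel tumours, 47.3, 54.1 and 38.9 in ORIN1001 tumours and 66.2, 62.8 and 58.6 in vehicle tumours and an interaction of 1.34 ± 0.21 (1.63 ± 0.42 with 12), and Tgfbi, a matrix protein induced by TGF-β, one of 1.33 ± 0.32 (1.59 ± 0.43 with 12). Both belong to the mesenchymal transition list, whose other 16 genes were not called. The smallest p-value of all belonged to Rbfa, a ribosome assembly factor of mitochondria, with an interaction of -1.34 ± 0.16 (-1.10 ± 0.36 with 12) and an unadjusted p of 3.59e-06.

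The pathway that ORIN1001 targets was read from its induced genes and its reported decay substrates. None of 37 genes induced by IRE1 and XBP1 was called by edgeR's test with 11 inputs, 8 lay above and 2 below at an unadjusted p under 0.05, and their median was 0.07 (0.23 with 12), with either sign as libraries were left out (-0.12 to 0.39). Xbp1 had 68.2, 50.7 and 75.6 CPM in Combo tumours, 93.6, 83.6 and 149 in docetaxel tumours, 129, 160.4 and 143 in ORIN1001 tumours and 155, 92.3 and 118 in vehicle tumours and an interaction of -0.69 ± 0.29 (adjusted p = 0.141, and -0.96 ± 0.36 with 12). Ern1, the gene of IRE1α, had 0.58 ± 0.20 (adjusted p = 0.0853, and 0.43 ± 0.27 with 12). Of 12 reported IRE1 decay substrates, 2 were called below additivity (16.7%, against 3.22% of all genes), Col6a1 and Sumo2. At an unadjusted p under 0.05, 4 lay below (against 14.4% of all genes) and 1 above. The median of the 12 was -0.72 (-0.52 with 12 inputs). In the list of ATF4 and CHOP targets the cystine transporter Slc7a11 was the 1 call of 19, above additivity at 1.09 ± 0.27 (1.15 ± 0.31 with 12). None of 17 p53 targets, 13 tubulins or 20 cholesterol synthesis genes was called by edgeR's test, with 4, 2 and 7 of them at an unadjusted p under 0.05. In the lists of RNA sensing, BCL2 family and heat shock genes 1 member each was called, all below: the adaptor Ticam1 at -0.91 ± 0.22 (-0.55 ± 0.64 with 12), the death promoter Bad at -1.30 ± 0.32 (-1.03 ± 0.49 with 12) and the chaperone Cryab at -1.31 ± 0.33 (-1.0 ± 0.55 with 12). Luminal and basal epithelial markers had no call in 14 and 9 genes by the same test, with 1 in each at an unadjusted p under 0.05. Nor was any of 4 B and plasma cell, 6 adipocyte, 4 skeletal muscle, 3 red blood cell and 11 mitochondrial mRNA genes called by it, where 0, 4, 1, 1 and 3 had an unadjusted p under 0.05. The adipocyte median was 1.35 with 11 inputs and -3.34 with 12, as docetaxel 3 held 537 summed CPM of adipocyte markers, and the mitochondrial mRNA median was -0.33 and -3.11.

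Unnamed gene models made up much of the upper side, and the classes of small RNA genes had medians above 0. Of the 932 genes above additivity, 628 (67.4%) were gene models named Gm with a number or ending in Rik, against 22.5% of all tested genes and 7.73% of the 595 below. Their median average level was 1.28 log2 CPM, against 4.46 for the other genes called above. Among named transcripts, Kcnq1ot1, a long nuclear RNA that silences its imprinted neighbours (chr7:143213111-143296547), had 1392, 2986 and 1588 CPM in Combo tumours, 281, 331 and 997 in docetaxel tumours, 777, 428 and 361 in ORIN1001 tumours and 732, 319 and 902 in vehicle tumours. Combo was highest without overlap, with Combo 2 at the top, and the interaction was 3.01 ± 0.62 with 11 inputs and 2.22 ± 0.77 with 12. Xist, the RNA that silences 1 X chromosome, had 1768, 4619.5 and 1961 CPM in Combo tumours, 766, 821 and 1986 in docetaxel tumours, 1009.8, 891 and 732 in ORIN1001 tumours and 1024, 649 and 1318 in vehicle tumours and an interaction of 1.99 ± 0.52 (1.41 ± 0.64 with 12), though docetaxel 3 was within the range of Combo. These were the 2 calls of 11 nuclear noncoding RNAs, and the median of that list was -0.07 (-0.15 with 12). It turned positive under upper quartile scaling and without vehicle 2, ORIN1001 1, docetaxel 2, Combo 2 or Combo 3 (-0.35 to 0.20 as each library was left out). By RefSeq class, 86.1% of tested genes could be placed. The median interaction was 1.57 over 77 miRNA genes, 1.43 over 66 snRNA genes, 1.01 over 97 snoRNA genes, 0.35 over 975 long noncoding RNAs, -0.07 over 13785 protein-coding genes and -0.52 over 744 pseudogenes. All 16 calls of the first 3 classes lay above additivity, which is 7.79, 10.6 and 3.09% of their genes. Above additivity were also 4.1% of the long noncoding RNAs and 2.02% of the protein-coding genes, against 5.04% of all tested genes. With 12 inputs the medians of the first 3 classes were 1.03, 1.26 and 0.76. A hairpin or snRNA gene in a total RNA library counts any read over it, also from a host transcript.

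Shorter protein-coding genes lay lower. In the shortest decile by gene length (374 to 4595 bases from start to end) the median interaction was -0.31 and 5.58% of genes were called below additivity, and in the longest decile it was 0.09 and 2.68% were. The order was that of the pair with docetaxel: Combo minus docetaxel had a median of -0.27 in the shortest and 0.07 in the longest decile, while ORIN1001 minus vehicle had 0.00 and -0.02. Against the additive level, the shortest decile departed by -0.17, -0.43 and -0.20 in Combo 1, 2 and 3. The parts of length, of the gene models and of the shares of transposable elements in the calls were not tested.

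**Figure D5:**
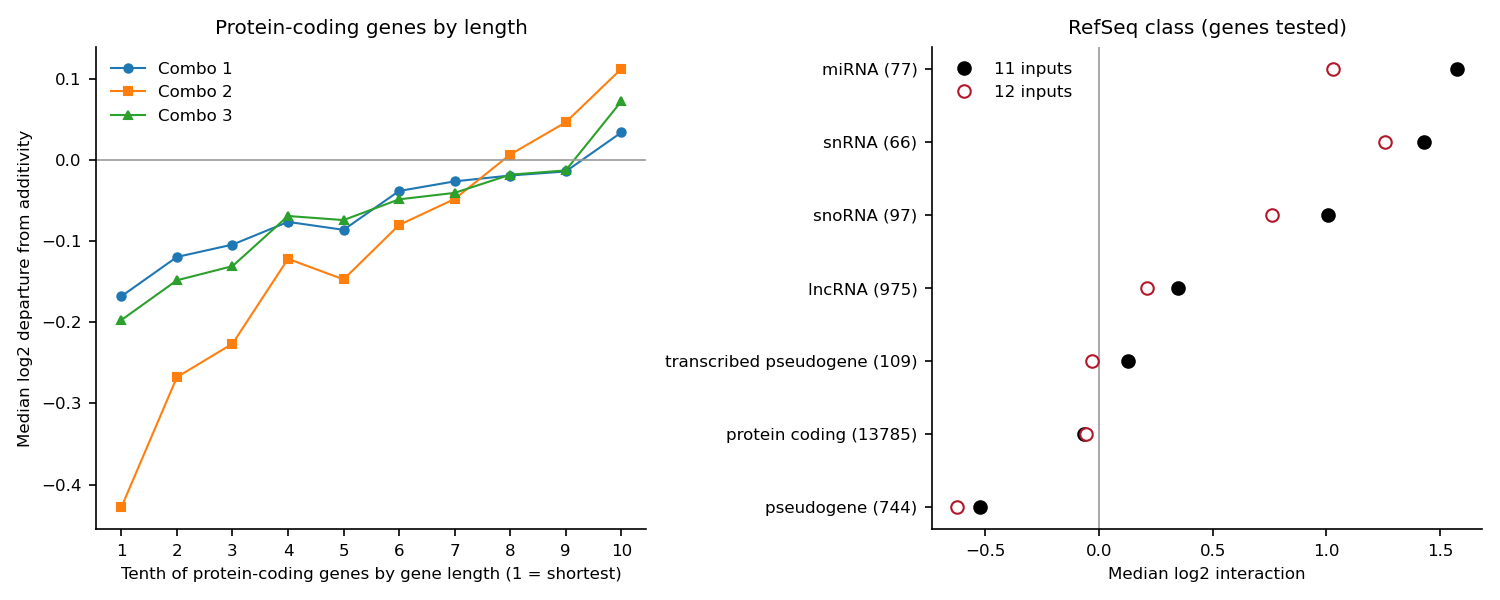
Left, median log2 departure of each Combo input from the additive level (y axis) in deciles of protein-coding genes by gene length (x axis). Right, median log2 interaction (x axis) of genes by RefSeq class with 11 inputs (black) and 12 inputs (open red). All 3 Combo inputs are lowest in the shortest genes, most so Combo 2 at -0.43, and small RNA genes have medians of 0.76 or more in both fits.

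The remaining named genes above additivity were less familiar in tumours. C1s1, a protease of the complement cascade, had 31.99, 21.6 and 28.4 CPM in Combo tumours, 1.34, 4.24 and 0 in docetaxel tumours, 5.91, 6.31 and 5.10 in ORIN1001 tumours and 8.50, 2.34 and 2.83 in vehicle tumours, with Combo highest without overlap and an interaction of 2.88 ± 0.74 (3.05 ± 0.80 with 12). Tlr12, a receptor for parasite profilin in mice, had 16.1, 18.6 and 21.3 CPM in Combo tumours, 2.12, 3.19 and 0 in docetaxel tumours, 2.12, 4.95 and 2.03 in ORIN1001 tumours and 4.37, 2.42 and 2.39 in vehicle tumours and an interaction of 2.81 ± 0.57 (2.97 ± 0.68 with 12). Below 20 CPM in every input were Htr5b (a serotonin receptor gene) at 3.23 ± 0.81 (3.33 ± 0.84 with 12), Ppnr at 3.14 ± 0.75 (2.60 ± 0.94 with 12), Olfr111 (an olfactory receptor gene) at 2.90 ± 0.64 (3.04 ± 0.75 with 12) and Phxr4 at 2.78 ± 0.63 (2.89 ± 0.69 with 12). Below additivity the rest were Kcne3, a potassium channel subunit, at -2.88 ± 0.58 (-2.58 ± 0.82 with 12), Ldb2, a cofactor of LIM domain factors, at -2.86 ± 0.51 (-2.65 ± 0.70 with 12), and Rps27rt and Dynlt1a at -3.33 ± 0.70 (-3.33 ± 0.73 with 12) and -3.04 ± 0.57 (-2.94 ± 0.60 with 12), both close copies of other genes with uncertain counts. With 12 inputs the adjusted p-values of the 24 largest genes lay between 0.0942 and 0.182.

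The J2 libraries of the same tumours share the animals and are no separate replicates. In them Cxcl9 had 37.7, 34.4 and 25.2 CPM in Combo, 1.80, 8.56 and 3.91 in docetaxel, 17.2, 26.5 and 19.8 in ORIN1001 and 17.3, 4.46 and 5.79 in vehicle tumours, on a scale of their own. Combo had the highest mean there too but overlapped with ORIN1001. Phlda1, by contrast, had 218, 377 and 207 CPM in Combo, 238, 202 and 264 in docetaxel, 281, 177 and 259.5 in ORIN1001 and 152, 189 and 229 in vehicle tumours, with no group apart.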

How the data were processed

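Input RNA of 12 tumours (3 per treatment) was analysed. The authors deposited raw counts for genes and for transposable elements. Tools named in the submitters' processing notes are featureCounts 2.0.3, STAR 2.7.3a and fastp 0.23.2, with the build mm10. Per the labels, Ribo-Zero libraries kept the strand. How strand and reads with several positions were treated in counting is not given in the sources used here. Of 53465 gene rows, 53274 had a symbol. Every column of both tables matched a sample.

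The interaction was fitted on these counts by edgeR 4.0.16 under R 4.3.3 (TMM, filterByExpr with a minimum count of 10 and total of 15, quasi-likelihood F test, two-sided), with Benjamini-Hochberg adjustment over all genes tested and a threshold of 0.05. All 4 groups shared 1 fit, once with 12 inputs and once, from the filter on, with 11. CPM are on the TMM scale of the 12 inputs, and a departure is log2(CPM + 0.5) of a Combo input less the additive level, which is the docetaxel mean (without replicate 3) plus the ORIN1001 mean minus the vehicle mean. Errors are SE of the fit. The script was tested on simulated data. Replicates of a group had chi-square per degree of freedom of 8.32 or more, so none looked like 1 library entered under 2 names. Alternatives were DESeq2 1.42.0, limma 3.58.1 (voom), other scalings and filters, a block and each library left out. Coordinates, classes, lengths and promoters are RefSeq GRCm38.p6. Missing from the promoter table were Gbp10, Ciita and Tap2. The values of 1 list member are not reported here.

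The members, the 40 gene lists and the rules were chosen with earlier results of these data known. Named genes are the 12 largest interactions each way among calls with an average log2 CPM of at least 1, 1 sign in every fit and no gene model name. As no gene was called with 12 inputs, they come from the 11. Added were up to 4 members per list with the smallest p, Ern1, Xbp1 and Trp53. Rbfa was named after its value was seen, as were the promoters shown.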

Additional observations from a re-analysis of the deposited data

Results flagged for a closer look

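The interaction is itself a test of whether 2 effects differ, and 932 genes above and 595 below additivity passed it with 11 inputs. Among named genes, 13 had opposite shifts without overlap of the libraries, also with docetaxel 3. All Combo inputs lay on one side of all docetaxel inputs, and all ORIN1001 inputs on the other side of all vehicle inputs. Of all 18475 tested genes 165 (0.893%) did so with Combo high and 112 (0.606%) with Combo low, among them 76 and 62 of the calls. Combo was high for Olfr111 (interaction 2.90), Lag3 (2.31), Itgax (1.82) and Tgfbr1 (1.34), and for Srp54a (2.10). The last, a signal recognition particle gene with near-identical copies, was not called (adjusted p = 0.0684, edgeR). Combo was low for Angpt2 (-3.62), Depp1 (-3.50), Des (-3.38), Cdh5 (-2.26), Emcn (-2.23), Col6a1 (-1.88), Phlda1 (-1.41) and Hmmr (-0.88). Without docetaxel the gap was slim for Phlda1 (lowest ORIN1001 value 433.5 CPM, highest vehicle value 433.4) and Hmmr (35.8 and 35.6). Their ORIN1001 minus vehicle changes were 0.21 ± 0.13 and 0.22 ± 0.14 (adjusted p = 0.846 and 0.867, edgeR). For no tested gene did that change pass at an adjusted p under 0.05.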

How the results depend on the processing

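With 11 inputs, the counts above and below additivity were 1775 and 1540 by DESeq2, 2122 and 2032 by limma-voom with sample weights, 1441 and 1288 with no filter on low counts, and 0 and 0 with the replicate block (5069 genes at an unadjusted p under 0.05). They ranged from 0 to 1561 above and from 0 to 1633 below as each library was left out. With 12 inputs, they were 573 and 218 by DESeq2 and 2079 and 1906 by limma-voom, and ranged from 0 to 932 and from 0 to 595 as each library was left out, with both highest counts reached without docetaxel 3. The robust fit, RLE and upper quartile scaling, a 1 CPM filter and leaving out ribosomal RNA loci and mitochondrial genes kept the counts of the 11 inputs within 1.5 times (913 to 1121 above, 527 to 621 below). DESeq2 called 1515 of the 1527 genes with the same sign, and limma-voom 1518. Upper quartile scaling moved the median of all genes to 0.13, against 0.02. The shared replicate numbers showed no clear pairing: 1 of 18 same-numbered pairs correlated above 0.1 (-0.31 to 0.17). Deviations were taken from the means of 3 libraries a group, docetaxel 3 included, so this check could miss a pairing. The cause of the lost calls was not tested. Over 74 named calls, 0 of 1554 values under the alternatives reversed, 845 stayed past the threshold and 709 did not. The naming rule had asked the 24 largest for 1 sign with 12 inputs and with each library left out. It took the list members by smallest p, so the lack of reversals was largely set beforehand and supports nothing. Trp53, not called, lay between -0.36 and 0.011 as each library was left out, and turned positive without Combo 2. With 2 docetaxel tumours and at least 11850243 counts a library, low genes such as Tigit rest on few reads.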
